A study of Mus musculus with 8 samples.

Results

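Type I interferon response genes were examined in the hippocampus of mice lacking the synaptic scaffold SAP97 (gene Dlg1) in the brain. The group held 36 genes of the 25834 in the table. Its members were taken by name as genes that type I interferon is known to induce. The rule itself used no measured value, but the group was chosen with earlier results of these data known. They comprised 4 Ifit genes, Isg15 and its protease Usp18, 6 genes of the 2-5A synthetase family, 12 other antiviral effectors, 3 transcription factors, 4 nucleic acid sensors and 5 inducible GTPases.

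Type I interferons are secreted when a cell senses foreign or misplaced nucleic acid. They bind the receptor Ifnar1 and Ifnar2, whose kinases activate Stat2, which joins Irf9 in a complex that binds interferon-stimulated response elements in the promoters of the induced genes. Most induced genes are also transcribed at a low basal level without infection, and in brain that tonic level is found in microglia, vessel cells, meninges and glia.

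RNA was sequenced from the hippocampus of 4 control and 4 SAP97-cKO male mice, with 1 library per mouse. The SAP97-cKO mice were Nestin-cre+/-; SAP97fl/fl, so that Cre driven by the Nestin promoter removed the floxed gene in neural progenitors and the neurons and glia that descend from them. The controls were littermates described as Nes-cre+/-, SAP97fl/fl or wild-type, and the sources used here gave neither the genotype of each control library nor the age at RNA collection. A Cre effect and the loss of SAP97 therefore cannot be told apart for these libraries. The tissue held all hippocampal cells, so fewer cells of a type and less RNA per cell could not be told apart.

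Totals ran from 37388177 to 37416649 read counts in controls and from 37391907 to 37426572 in SAP97-cKO. Dlg1, the deleted gene, had 4338 ± 336 normalized counts in controls and 2393 ± 470 in SAP97-cKO (mean ± SD, n = 4 each), and the groups did not overlap. Its log2 fold change was -0.86 (SE 0.124, adjusted p = 0.143), a partial fall in reads summed over the whole gene in whole tissue. For these libraries the paper reports a much larger fall in reads on a single exon of the gene. It also reports reduced SAP97 protein in the hippocampus by western blot. The whole-gene count therefore does not show how much intact transcript or protein remained. Markers of hippocampal neurons, astrocytes and oligodendrocytes were the most abundant of the marker lists, apart from choroid plexus markers, whose sum ran from 6525 to 256900 in controls and from 3713 to 88150 in SAP97-cKO. Throughout, a normalized count is a read count scaled to a common effective library size, and a log2 fold change is SAP97-cKO over control from edgeR's quasi-likelihood test, with p-values adjusted over all 16251 genes tested. A gene was called at an adjusted p under 0.25.

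Interferon response genes were mostly lower in the SAP97-cKO hippocampus by modest amounts. Of the 36 members, 32 had enough counts to be tested, and 31 of these had a log2 fold change below 0. Of these, 2 members were called, both lower: Ifit3, at 57.6% of its control mean, and Ifitm2, at 58.6%. Both are in the study's own list of differing genes from these libraries, so these calls are not an independent result. No member was called higher. Among all genes tested 0.283% were called lower and 0.0123% higher.

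At an unadjusted p under 0.05, 15 members were lower and none was higher, where 7.01% of all genes were lower and 4.73% higher at that threshold. In 8 members the highest SAP97-cKO value was under the lowest control value, which 3.47% of all genes showed, and no member had the opposite arrangement. The median log2 fold change was -0.46 over the 32 tested members and -0.012 over all genes tested, and 96.9% of the members against 52.8% of all genes were below 0. The filter did not select for the control group: 30 of the 32 had at least 10 counts in every library. The exceptions were Oas1a and Oas2.

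The summed level of all 36 members was 6616 to 7486 normalized counts in controls and 5155 to 6023 in SAP97-cKO, without overlap, but single members varied more from library to library. Relative to each member's control mean, the median member stood at 0.08, 0.08, -0.04 and -0.07 on the log2 scale in control libraries 1 to 4, and at -0.14, -0.38, -0.48 and -0.60 in SAP97-cKO libraries 1 to 4. In SAP97-cKO library 1 only 9 of the 32 members lay below every control, against 21, 22 and 22 in libraries 2, 3 and 4. Library 4 held the lowest value of 14 members, and control libraries 1 and 2 held the highest value of 11 and 10.

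**Figure D1:**
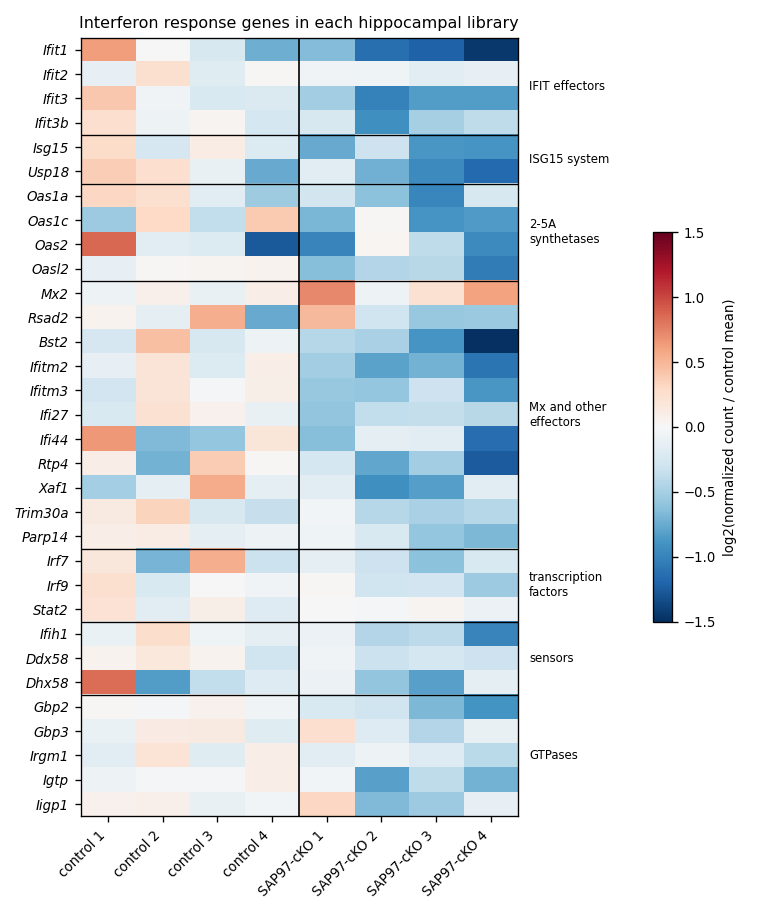
Heat map of the 32 tested members (rows, by role) in the 4 control and 4 SAP97-cKO libraries (columns), coloured by the log2 ratio of the normalized count (with 0.5 added) to the control mean. Blue, a value below the control mean, fills most of SAP97-cKO libraries 2, 3 and 4, library 1 is paler, and Mx2 is the only row whose fold change was above 0.

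The IFIT proteins bind viral RNA and block its translation. The 4 Ifit genes lie close together on mouse chromosome 19 (chr19:34550694-34650009, GRCm38), and 3 of them were lower at an unadjusted p under 0.05. Ifit3 had 421, 308, 271 and 273 normalized counts in controls 1 to 4 and 221, 157, 177 and 178 in SAP97-cKO 1 to 4. The highest SAP97-cKO value was under the lowest control value. The means were 318 ± 70.8 and 183 ± 26.9 (SD, n = 4 each), a log2 fold change of -0.80 (SE 0.168, adjusted p = 0.2496), so the gene passed the threshold only just. Its adjusted p was above the threshold when control 2 (0.565), control 4 (0.261), SAP97-cKO 2 (0.348), SAP97-cKO 3 (0.646) or SAP97-cKO 4 (0.647) was left out, while its log2 fold change stayed between -0.89 and -0.63. Without control 2, SAP97-cKO 3 or SAP97-cKO 4 edgeR called 0 of all genes tested, with 1404, 1259 and 1167 at an unadjusted p under 0.05.

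Ifit1, the family member that recognises viral RNA lacking cap methylation, had the largest difference of the tested members. Its normalized counts were 238, 155, 130 and 92.2 in controls and 97.8, 69.7, 65.9 and 56.1 in SAP97-cKO. The groups overlapped, because SAP97-cKO 1 lay above control 4. The log2 fold change was -1.09 (SE 0.286, adjusted p = 0.316), and Ifit1 was not called.

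Ifit3b, a close copy of Ifit3, had 176, 140, 152 and 122 normalized counts in controls and 124, 77.7, 104 and 113 in SAP97-cKO. The groups overlapped only through SAP97-cKO 1 and control 4, with means of 147 ± 22.6 and 105 ± 19.9 (-0.49, SE 0.177, adjusted p = 0.368). Of all 50-base stretches in Ifit3 transcripts 51.2% also occurred in Ifit3b, so reads could have been divided between these genes. Their sum was 597, 447, 422.5 and 395.0 in controls and 345, 235, 282 and 291 in SAP97-cKO, again without overlap (exact two-sided permutation test over 70 assignments, p = 0.0286, the smallest that 4 against 4 libraries can give). Ifit2, their neighbour, had 381 ± 51.6 and 355 ± 12.99 normalized counts, and its log2 fold change of -0.10 (SE 0.11, adjusted p = 0.707) was within the spread between libraries.

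Isg15 encodes a ubiquitin-like protein that interferon-induced enzymes attach to many targets, and Usp18 removes it and also damps the interferon receptor. Isg15 had 84.0, 57.8, 74.8 and 60.2 normalized counts in controls and 40.7, 55.8, 37.5 and 37.4 in SAP97-cKO. The highest SAP97-cKO library lay just under the lowest control. The log2 fold change was -0.69 (SE 0.214, adjusted p = 0.341). Usp18 was similar in size of difference (-0.71, SE 0.309, adjusted p = 0.415), with overlapping groups of 64.0, 58.8, 45.7 and 29.1 against 43.8, 29.9, 25.3 and 21.8.

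The 2-5A synthetases make the short oligoadenylates that switch on RNase L, and all 4 tested genes of this family were below 0 (median -0.54). Oasl2, an inducible relative, was the only one at an unadjusted p under 0.05. It had 113, 125, 126 and 127 normalized counts in controls and 78.4, 90.6, 92.2 and 59.2 in SAP97-cKO, with tight controls and no overlap (-0.61, SE 0.166, adjusted p = 0.316). Oas1a, Oas1c and Oas2 had between 10.1 and 26.6 mean normalized counts in either group, and their adjusted p-values were 0.529, 0.514 and 0.658. Oas1a had 23.0, 21.9, 16.5 and 12.6 normalized counts in controls and 15.3, 11.95, 9.12 and 15.6 in SAP97-cKO, with overlap. Oas1c also overlapped, at 18.01, 32.9, 20.4 and 34.9 against 16.3, 26.9, 14.2 and 14.5.

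Oas1b and Oas1g were too low to test. Oas1b, annotated as a polymorphic pseudogene, had 11, 3, 8 and 5 reads in controls and 6, 6, 7 and 1 in SAP97-cKO, or 27 against 20. Oas1g had 6, 4, 1 and 5 reads in controls and 0, 0, 1 and 0 in SAP97-cKO, or 16 against 1. That is 16.0 times as many in controls, with exact 95% bounds of 2.49 and 671 from counting error alone. Those bounds pool the reads of each group and leave out variation between mice. Over mice, the Oas1g groups overlapped (exact permutation test, p = 0.0571). Without the filter on low counts, edgeR did not call Oas1g (-3.42, SE 1.12, adjusted p = 0.391). Oas1g is also in the study's own list of differing genes from these libraries. Its difference, and any sum that includes it, is not an independent result. Of the 50-base stretches in Oas1a 57.6% also occur in Oas1g, and the sum of both genes was 29.0, 25.9, 17.5 and 17.5 normalized counts in controls and 15.3, 11.95, 10.1 and 15.6 in SAP97-cKO (exact permutation test, p = 0.0286). The sum did not overlap between groups, but the nearest libraries, at 17.5 and 15.6, were only a few reads apart. Among all genes tested 3.47% showed the same arrangement.

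The interferon-induced transmembrane proteins stop enveloped viruses from fusing with cell membranes, and Ifitm2 and Ifitm3 were, with Ifi27, the most abundant members per kb of transcript. Ifitm2 had 236, 293, 222 and 274 normalized counts in controls and 178, 147, 156 and 119 in SAP97-cKO. The groups were well apart, with means of 256 ± 32.7 and 150 ± 24.3 (SD, n = 4 each). The log2 fold change was -0.77 (SE 0.149, adjusted p = 0.21). The call was lost, at a log2 fold change of -0.78 to -0.67, without control 2 (adjusted p = 0.557), control 4 (0.302), SAP97-cKO 2 (0.315), SAP97-cKO 3 (0.622) or SAP97-cKO 4 (0.481). Of its 50-base stretches 48.5% recur in other annotated genes, mainly the copies Gm45717 and Gm11951, so its level is less certain than its count implies.

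Ifitm3 had 294, 412, 352 and 381 normalized counts in controls and 242, 240, 290 and 196 in SAP97-cKO (-0.57, SE 0.144, adjusted p = 0.316). SAP97-cKO 3 came within a few counts of control 1, but the groups did not overlap. Ifi27, a small hydrophobic membrane protein, was the most abundant member at 996 normalized counts per kb in controls, ahead of Ifitm3 at 530 and Ifitm2 at 391. Its normalized counts were 1248, 1715, 1528 and 1354 in controls and 966, 1128, 1142 and 1098 in SAP97-cKO. All 4 SAP97-cKO libraries were below all controls, at 74.2% of the control mean (-0.43, SE 0.104, adjusted p = 0.302).

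Bst2 (tetherin), which holds budding virions on the cell surface, had 130, 213, 131 and 148 normalized counts in controls and 115, 111, 84.1 and 54.0 in SAP97-cKO. The groups did not overlap, although SAP97-cKO 1 and 2 were close to the lower controls (-0.77, SE 0.251, adjusted p = 0.347). Rtp4, a receptor chaperone that interferon induces, gave 72.0, 40.9, 87.4 and 67.9 against 56.0, 38.8, 46.6 and 28.0, and Parp14, an ADP-ribosyltransferase, gave 177, 178, 150 and 157 against 158, 141, 110 and 104. Both pairs of groups overlapped (Rtp4 -0.66, SE 0.281, adjusted p = 0.409, and Parp14 -0.37, SE 0.159, adjusted p = 0.414).

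The remaining effectors were less clear. Xaf1, a proapoptotic partner of XIAP, had 559 ± 185 and 402.5 ± 112.5 normalized counts (-0.47, adjusted p = 0.462). Ifi44 (-0.46), the ubiquitin ligase Trim30a (-0.34) and Rsad2, whose product viperin makes a chain-terminating nucleotide (-0.17), had adjusted p-values of 0.607, 0.516 and 0.849. Mx2, of the dynamin-like antiviral GTPase family but annotated as a polymorphic pseudogene, was the only tested member above 0. It had 19.0 ± 1.42 and 25.2 ± 6.24 normalized counts (0.41, SE 0.263, adjusted p = 0.539). Mx1 had 17 reads in controls and 16 in SAP97-cKO and was not tested.

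**Figure D2:**
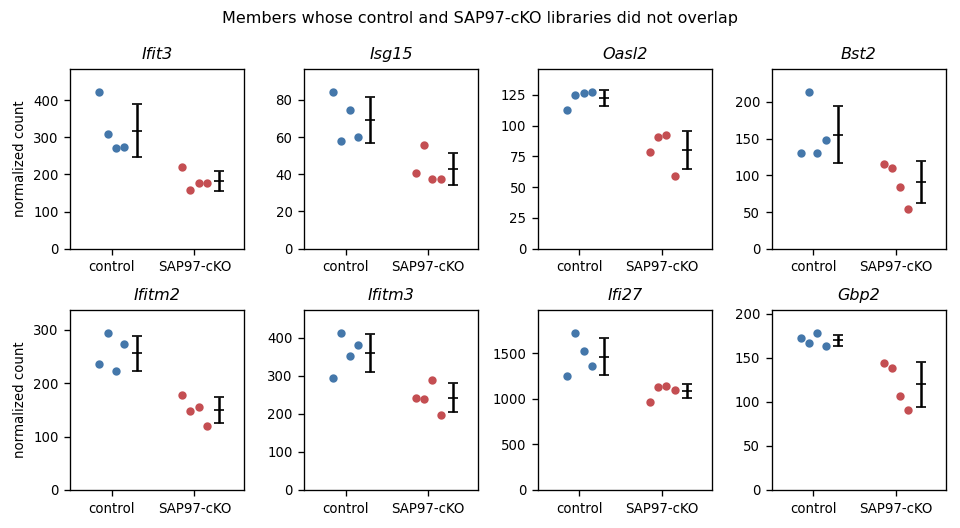
Normalized counts of the 8 members whose groups did not overlap, 1 point per library (blue, control, and red, SAP97-cKO, 4 each), with the mean and SD beside the points in black and each vertical axis starting at 0. In Oasl2 and Gbp2 the controls are tight and the SAP97-cKO libraries spread below them, and in Isg15 and Ifitm3 the nearest libraries of the groups are close.

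The factors that carry the interferon signal to promoters did not pass either threshold. Stat2 had 823 ± 115 normalized counts in controls and 814 ± 28.6 in SAP97-cKO (-0.02, SE 0.0993, adjusted p = 0.958). Irf9, the DNA-binding partner of Stat2, had 309 ± 42.1 and 257 ± 41.2 (-0.27, adjusted p = 0.477). Irf7, itself induced and needed for strong interferon production, had 77.9 ± 29.1 and 62.5 ± 8.49 (-0.32, adjusted p = 0.631).

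The cytoplasmic sensors recognise viral RNA and start interferon production. Ifih1 (MDA5), the sensor of long double-stranded RNA, had 169, 218, 174 and 164 normalized counts in controls and 170, 133, 138 and 91.4 in SAP97-cKO. Only SAP97-cKO 1 lay inside the control range (-0.44, SE 0.187, adjusted p = 0.404). Ddx58 (RIG-I), the sensor of RNA ends, was at 224 ± 29.2 and 190.0 ± 17.5 (-0.23, adjusted p = 0.489), and the related regulator Dhx58 at 37.8 ± 20.8 and 29.0 ± 7.03 (-0.38, adjusted p = 0.677). Zbp1, which senses Z-form nucleic acid, had 18 reads in controls and 15 in SAP97-cKO and was not tested.

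The inducible GTPases act against intracellular parasites and bacteria and answer interferon-gamma at least as strongly as type I interferon. Gbp2 had 172, 166, 178 and 163 normalized counts in controls and 145, 138, 106 and 91.4 in SAP97-cKO. The groups did not overlap (-0.50, SE 0.160, adjusted p = 0.347). Igtp had 162, 168, 168 and 183 in controls and 166, 96.6, 131 and 104 in SAP97-cKO, with SAP97-cKO 1 again among the controls (-0.46, SE 0.174, adjusted p = 0.378). Gbp3 (-0.10), Irgm1 (-0.21) and Iigp1 (-0.21) had adjusted p-values of 0.814, 0.516 and 0.701.

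**Figure D3:**
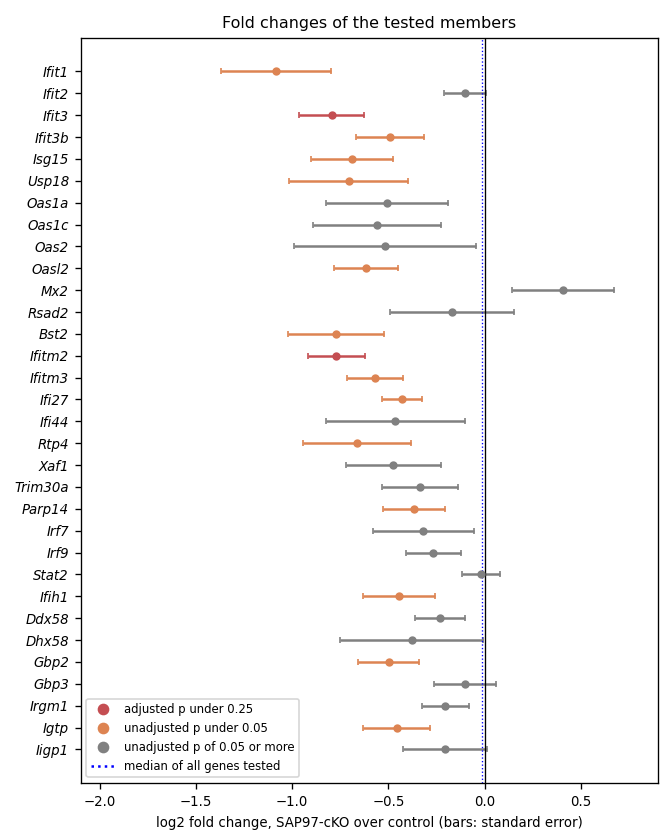
Log2 fold change of SAP97-cKO over control with its standard error for the 32 tested members, from edgeR, with the median of all genes tested as a dotted line at -0.012. Ifit3 and Ifitm2 (red) were called, a further 13 members (orange) had an unadjusted p under 0.05, and 31 of the 32 points lie to the left of 0.

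The promoters of these genes are shown because many members hold the element through which interferon induces genes. Members were chosen as interferon-induced genes, so a higher share with the element than among all promoters is no independent result. RefSeq promoter sequences (GRCm38.p6) were matched for 25 of the 36 members. The 250 bases before the start site were searched on both strands for the core of the interferon-stimulated response element, written as GAAA, any 2 bases and GAAA. It occurred before at least 1 start site in 16 of the 25 members, and in 55.2% of their 29 promoters against 2.98% of all 32851 promoters. Below are 160 bases upstream of the annotated start of the 5 members with the smallest p-values among those whose element lay before both the RefSeq and the GENCODE start, 5′ to 3′ on the strand of the gene. Capitals mark the element, and where it lies on the opposite strand it reads as TTTC, 2 bases, TTTC.
Ifitm2 (chr7:140955988-140956147, minus strand): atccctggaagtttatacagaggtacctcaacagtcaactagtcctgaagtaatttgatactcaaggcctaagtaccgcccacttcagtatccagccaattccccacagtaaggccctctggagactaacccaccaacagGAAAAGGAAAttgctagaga
Ifit3 (chr19:34583369-34583528, plus strand): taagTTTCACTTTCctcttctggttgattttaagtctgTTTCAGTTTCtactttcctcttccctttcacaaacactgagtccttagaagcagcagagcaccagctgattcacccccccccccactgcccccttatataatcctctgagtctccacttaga
Ifit1 (chr19:34640711-34640870, plus strand): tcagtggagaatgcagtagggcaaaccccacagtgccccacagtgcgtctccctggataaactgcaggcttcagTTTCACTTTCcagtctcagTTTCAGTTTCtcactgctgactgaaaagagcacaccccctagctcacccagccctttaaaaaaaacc
Isg15 (chr4:156200819-156200978, minus strand): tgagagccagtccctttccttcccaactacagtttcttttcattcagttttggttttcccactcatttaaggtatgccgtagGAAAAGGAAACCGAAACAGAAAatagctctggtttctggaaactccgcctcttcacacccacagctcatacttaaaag
Bst2 (chr8:71537473-71537632, minus strand): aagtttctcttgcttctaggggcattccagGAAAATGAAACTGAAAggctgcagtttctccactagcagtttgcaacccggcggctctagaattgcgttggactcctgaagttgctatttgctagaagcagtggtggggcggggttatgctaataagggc

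Isg15 held 3 overlapping elements in 1 run, Bst2 held 2 that overlap, Ifit3 and Ifit1 held 2 separate elements each, and Ifitm2 held 1. The 15 tested members with the element had a median log2 fold change of -0.50, and the 9 without it had -0.45, with 8 and 3 at an unadjusted p under 0.05. Ifitm3 and Ifit2, among others, had no match in this window. A gamma-activated site (TTCNNNGAA) occurred in 13.8% of the members' promoters and in 7.02% of all promoters.

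The other genes of the interferon system were taken from a list of 92, of which 74 were in the table and 66 were tested. None passed edgeR's adjusted threshold (DESeq2 called 2 of the 66, where it called 6.36% of all genes, and limma-voom called 0). At an unadjusted p under 0.05, 8 were lower and 0 higher, where 7.01% of all genes were lower and 4.73% higher. The median of the 66 was -0.14. Of 20 interferon ligand genes only Ifnab and Ifng were in the table, with a summed level of at most 1.94 normalized counts in any control and 0 in every SAP97-cKO library, so neither ligand could be compared at this depth.

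The receptors and kinases stood near 0, with a median of -0.05 over 15 genes. Ifnar1 had 1482 ± 74.0 normalized counts in controls and 1536 ± 75.1 in SAP97-cKO (0.05), and Ifnar2 had 542 ± 34.9 and 514 ± 21.0 (-0.08). The interferon-gamma receptor Ifngr1 was the 1 gene here at an unadjusted p under 0.05 (-0.20, SE 0.0864, adjusted p = 0.411).

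Upstream of interferon, the adaptors Mavs (-0.42, adjusted p = 0.331) and Myd88 (-0.32, adjusted p = 0.368) and the RNA-binding antiviral protein Zc3hav1 (-0.33, adjusted p = 0.36) were lower at an unadjusted p under 0.05, out of 12 tested. Of 39 other induced genes tested, 4 were: Ifi204, a DNA sensor of macrophages (-1.10, SE 0.341, adjusted p = 0.341), Ifi35 (-0.60, adjusted p = 0.383), Tor3a (-0.40, adjusted p = 0.416) and the ISG15 ligase Herc6 (-0.39, adjusted p = 0.372). Both counts are to be read against the 7.01% of all genes that were lower at this threshold. Ifi204 had 17, 11, 17 and 13 reads in controls and 9, 6, 6 and 5 in SAP97-cKO. It passed the expression filter only through the controls, so its place among the 4 carries no weight. Whether these lists differed from each other was not tested.

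Markers of several other cell types differed between the groups alongside the members. The counts below are to be read against all genes tested, of which 0.283% were called lower and 0.0123% higher. At an unadjusted p under 0.05, 7.01% of all genes were lower and 4.73% higher. The summed level of 15 meningeal fibroblast markers was 12590 to 22190 normalized counts in controls and 7185 to 11730 in SAP97-cKO, without overlap. All 15 were below 0 and 6 were called lower, with a median of -1.01. Several of them, such as Col1a2, Col3a1 and Slc6a13, are in the study's own list of differing genes from these libraries. Their separation is therefore not an independent result. The 7 border-associated macrophage markers summed to 425 to 724 and 230 to 457 (7 of 7 below 0, 2 at an unadjusted p under 0.05). Pericyte and smooth muscle markers summed to 8208 to 8977 and 5004 to 8190 (8 of 8 below 0, 3 at that threshold). Neutrophil and monocyte markers were near the floor, at 26.2 to 46.6 and 10.4 to 23.4. Only 1 of the 7 listed could be tested (-1.46), so little can be read from that list. Endothelial markers summed to 8276 to 9562 and 6349 to 10590 (10 of 10 below 0, 0 at an unadjusted p under 0.05), and oligodendrocyte markers to 210700 to 339400 and 164800 to 297500 (8 of 8 below 0, 5 at that threshold). All 10 choroid plexus markers were also below 0, with a median of -1.48, but none had an unadjusted p under 0.05, and their sums overlapped. Hippocampal neuron markers went the other way, with 8 of 10 above 0, 3 of them higher at that threshold, and a median of 0.11. Their sums were 339600 to 376800 in controls and 359900 to 427500 in SAP97-cKO. Astrocyte markers were mixed: 3 of 8 were below 0, with 1 called lower, and 5 were above 0, with 2 at that threshold. The astrocyte median was 0.02. The part of these cell types in the members' difference was not tested. The covariate fit below cannot separate the meningeal level from genotype.

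Microglial markers, by contrast, summed to 15320 to 19920 and 14820 to 19180, with 4 of 10 below 0, none at an unadjusted p under 0.05 and a median of 0.02. Lymphocyte markers were near the floor in both groups, at 13.6 to 34.0 and 20.4 to 31.9, and 9 of 10 were too low to test. No listed marker in the table was at 0 in all libraries. With the mean log2 level of the microglial markers as a covariate, 14 members were still lower at an unadjusted p under 0.05 and the median was -0.46.

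**Figure D4:**
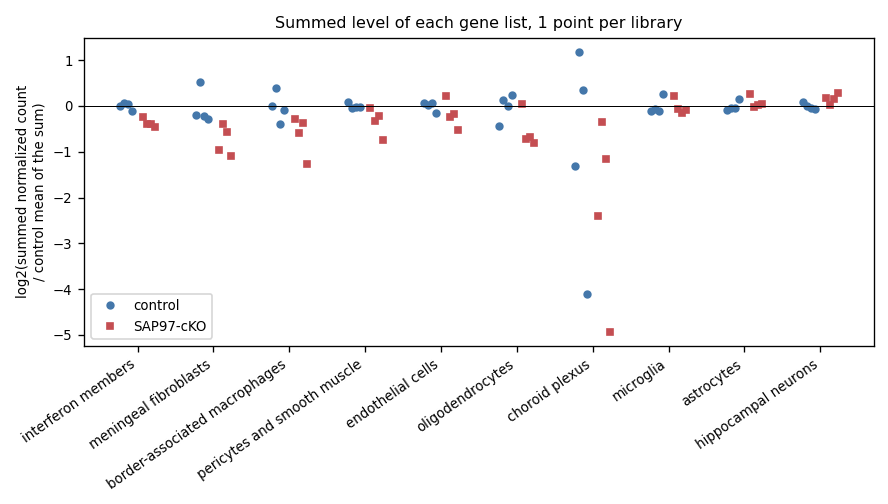
Log2 ratio of the summed normalized count of each gene list to its control mean, 1 point per library (4 control, 4 SAP97-cKO). The summed members and the meningeal fibroblast markers did not overlap between groups, the microglial markers did, and the choroid plexus markers spread over the widest range within both groups.

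With the mean log2 level of the meningeal fibroblast markers as a covariate, edgeR called 0 of all genes tested (553 at an unadjusted p under 0.05), and 24 of the 32 members were below 0, with a median of -0.22. Every one of the 15 members at an unadjusted p under 0.05 had a larger SE in this fit. Of their log2 fold changes, 4 were as large or larger, namely Ifit3 (-0.80, SE 0.369), Ifit3b (-0.84, SE 0.368), Rtp4 (-0.92, SE 0.591) and Igtp (-0.50, SE 0.382). Another 9 were smaller but below 0, among them Ifit1 (-0.69, SE 0.609), Ifitm2 (-0.37, SE 0.286) and Ifitm3 (-0.17, SE 0.265). Bst2 (0.23, SE 0.383) and Ifih1 (0.13, SE 0.342) came out above 0. Whether members differed from each other in this shift was not tested. The covariate itself differed between genotypes, so with 8 libraries the genotype and the meningeal level cannot be told apart.

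**Figure D5:**
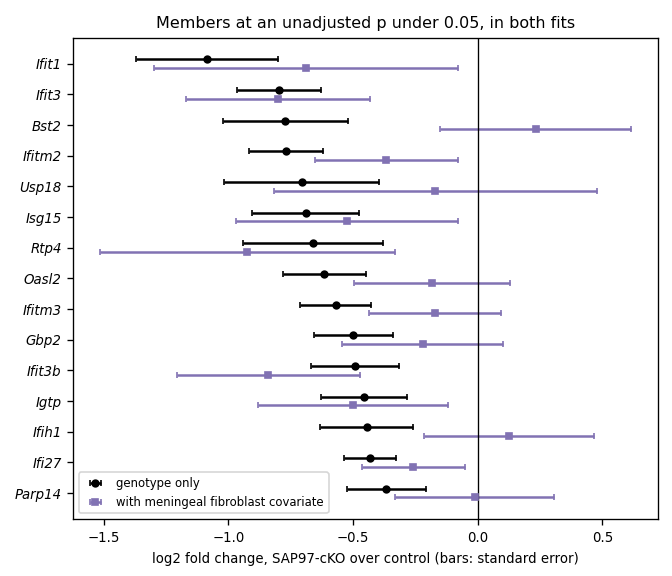
Log2 fold change and SE of the 15 members at an unadjusted p under 0.05, with genotype alone (black circles) and with the mean log2 level of the meningeal fibroblast markers as a covariate (purple squares). Ifit3 was at -0.80 in both fits with a wider error in the second, and Bst2 was at -0.77 and 0.23. Whether members differed from each other in this shift was not tested.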

How the data were processed

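The authors aligned hippocampal RNA-seq reads to the mouse genome (GRCm38.p5, mm10) with STAR 2.5.3a and deposited gene counts from PORT, which resamples reads so that the libraries have near-equal totals. Low counts therefore carry the error of that shared depth. The deposited table also held the authors' fold changes, p-values and q-values from limma-voom, which were not used. Columns were matched to samples by title. Here the whole-number counts were fitted with edgeR 4.0.16 (R 4.3.3): TMM scaling, edgeR's expression filter with a minimum count of 10, genotype as the only term, and the quasi-likelihood test with Benjamini-Hochberg adjustment over 16251 genes at 0.25. Single sums were compared by exact permutation. DESeq2 1.42.0, limma 3.58.1, other scalings and filters, a replicate block, cell-type covariates and leaving out each library were alternatives. The code was tested on simulated data. Members, marker lists and pathway lists were chosen with earlier results of these data known. All 36 members are named by role, with values per library for those called, at an unadjusted p under 0.05, not overlapping, most abundant per kb, or sharing reads. Pathway genes are named at an unadjusted p under 0.05, and Ifnar1 and Ifnar2 irrespective of p. A gene that this rule also names irrespective of p is not reported here. Any 2 libraries differed beyond sampling noise, so each counted as 1 mouse.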

Additional observations from a re-analysis of the deposited data

Results flagged for a closer look

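In 3 of 74 groups of 4 libraries tested, 1 library stood far from the other three by Dixon's criterion, which chance gives in about 1 in 20 groups. Oas1c had 26.9 normalized counts in SAP97-cKO 2 against 14.2 to 16.3 in the other SAP97-cKO libraries. Trim30a had 87.6 in SAP97-cKO 1 against 63.8 to 66.7 in the others. Oas1g had 1.01 in SAP97-cKO 3, which is a single read, and 0 in the others.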

How the results depend on the processing

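For single genes over all alternatives, 485 fold changes kept their direction and side of the threshold, 27 passed it newly, 15 no longer passed it and 15 reversed. The percentage of all genes called in the same fit follows each count in brackets. The 2 called members (0.295%) became 1 with limma-voom (0.308%), 10 with DESeq2 (6.36%), 1 with DESeq2 size factors in edgeR (0.215%), 4 without the filter on low counts (0.403%), 1 with at least 10 counts in every library (0.232%), 4 with a replicate block (1.58%), 0 with the meningeal covariate (0.0%) and 0 at an adjusted threshold of 0.05 (0.0%, edgeR, 15 members at an unadjusted p under 0.05). Leaving out 1 library gave 0 to 9: 8 without control 1 (10.2%), 9 without SAP97-cKO 1 (4.32%), 2 without control 3 (0.335%), 0 without control 4 (0.195%) or SAP97-cKO 2 (0.299%), and 0 without control 2, SAP97-cKO 3 or SAP97-cKO 4 (0.0% each). The meningeal covariate left 2 members (Ifit3b and Xaf1) at an unadjusted p under 0.05 and a median of -0.22; leaving out 1 library gave medians of -0.498 to -0.385. Called pathway genes, of 66, went from 0 to 2 with DESeq2, 1 with the microglial covariate (1.71%), and 0 to 7 with 1 library left out (7 without control 1, 4 without SAP97-cKO 1), to be read against the same percentages of all genes. Dlg1 had -0.44 with the meningeal covariate (adjusted p = 0.999) and -1.0 to -0.779 with 1 library left out, not passing without control 2 (0.424), SAP97-cKO 3 (0.524) or SAP97-cKO 4 (0.346). Reversals under the meningeal covariate were Ifit2 0.132, Oas1c 0.182, Oas2 0.391, Mx2 -0.0431, Bst2 0.232, Ifi44 0.196, Trim30a 0.00486, Ifih1 0.127 and Irgm1 0.192. With 1 library left out, Rsad2 ranged from -0.466 to 0.0858, Stat2 from -0.0743 to 0.0658, Dhx58 from -0.577 to 0.0661 and Gbp3 from -0.233 to 0.00352. Causes were not tested. The labels do not say whether the shared replicate numbers pair the mice, and the correlations cannot decide it. Same-number correlations were -0.062, 0.201, 0.0898 and 0.259, and controls 2, 3 and 4, but not control 1, correlated best with their own number. Choroid plexus marker sums also ran in the same order by number in both groups. They were 45240, 256900, 143300 and 6525 in controls, and 21470, 88150, 50970 and 3713 in SAP97-cKO. With a replicate block the adjusted p of Dlg1 was 0.0219 in edgeR. Depth limited Oas1a and Oas2, which had fewer than 10 counts in some libraries, and the 4 untested members.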
